A study of Homo sapiens with 12 samples.

Results

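The expression of 10 genes of the major histocompatibility complex (MHC) class II pathway was followed across 4 groups of A375 cells, a human melanoma line. The genes were the chains HLA-DRA, HLA-DRB1, HLA-DPA1, HLA-DPB1, HLA-DQA1 and HLA-DQB1, the peptide editor subunits HLA-DMA and HLA-DMB, the invariant chain CD74 and the transactivator CIITA. They were taken by symbol from the deposited count table, which held 56609 symbols, and all 10 were found and passed the filter on low counts. The cells were wild type or carried a CRISPR/Cas9 knockout of MAPKAPK2, which encodes the stress-activated kinase MK2. Each genotype received either 500 nM JQ1, a small-molecule inhibitor of the BET bromodomain proteins, or its solvent DMSO, for 48 h. The groups were wild type with DMSO, wild type with JQ1, knockout with DMSO and knockout with JQ1, with 3 RNA-seq libraries each. Titles call the DMSO samples untreated, and the treatment field, which names DMSO, was followed. The labels do not say whether the knockout line was 1 clone or a pool, nor whether the replicates were separate cultures, so p-values measure only the spread between these libraries, which may be technical.

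MHC class II molecules are pairs of an alpha and a beta chain that present peptides from the endosomal pathway to CD4+ T cells. CD74 fills the binding groove during transport, is degraded in endosomes, and its last fragment is removed with the help of the HLA-DM heterodimer. CIITA does not bind DNA itself. It is recruited by the RFX, CREB and NF-Y factors that sit on the X and Y boxes of class II promoters, and it is the main switch of the pathway, usually active in professional antigen-presenting cells and inducible by interferon gamma elsewhere. Class II expression without immune cells is well known in a portion of melanomas.

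The promoters are shown because class II promoters are known for an X box followed by a Y box, a feature that was not used to choose the genes. RefSeq promoter windows (GRCh38.p14, 250 bases before to 50 bases after a start) were given for 8 of the 10 genes, with 2 windows for HLA-DPA1. HLA-DRA and CIITA had no entry. In the stretches below, written 5′ to 3′ on the strand of the gene, the first run of capitals is the match to the long X box motif in HLA-DQB1, HLA-DMA, HLA-DMB and CD74. In HLA-DRB1, HLA-DQA1 and HLA-DPA1 it matches only a shorter core of that motif. Each later run is a Y box on either strand. HLA-DPB1 had no match to either form and is not shown.
HLA-DRB1, chr6:32589870-32589947, minus strand: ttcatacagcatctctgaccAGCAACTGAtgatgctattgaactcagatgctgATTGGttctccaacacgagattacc
HLA-DQA1, chr6:32637284-32637362, plus strand: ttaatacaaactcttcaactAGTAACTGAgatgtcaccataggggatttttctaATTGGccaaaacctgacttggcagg
HLA-DQB1, chr6:32666697-32666801, minus strand: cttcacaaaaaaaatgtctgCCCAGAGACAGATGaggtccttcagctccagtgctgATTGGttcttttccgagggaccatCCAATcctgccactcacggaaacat
HLA-DMA, chr6:32953152-32953233, minus strand: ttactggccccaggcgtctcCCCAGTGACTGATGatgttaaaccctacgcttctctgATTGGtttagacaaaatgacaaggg
HLA-DMB, chr6:32941086-32941139, minus strand: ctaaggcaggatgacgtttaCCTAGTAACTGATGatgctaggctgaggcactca
CD74, chr5:150412939-150413014, minus strand: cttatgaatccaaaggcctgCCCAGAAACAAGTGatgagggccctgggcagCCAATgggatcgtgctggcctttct
HLA-DPA1, second window, chr6:33073720-33073768, minus strand: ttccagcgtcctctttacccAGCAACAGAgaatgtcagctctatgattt

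The long X box motif was searched on both strands and was present in 4 of the 8 genes, against 3.9% of all 35116 promoter windows. A shorter core, AGNNACNGA, was added after the windows had been read, overlaps the longer motif, and was present in 6 of 8, against 15.3% of windows. The Y box CCAAT was present in 7 of 8, against 34.6% of windows. HLA-DPA1 had no Y box, and that of HLA-DMB lay outside the stretch shown. A long X box on the gene strand with a Y box read as ATTGG starting within 60 bases after it occurred in 2 of the 8 genes (HLA-DQB1 and HLA-DMA) and in 0.122% of all windows. The core with such a Y box occurred in 4 of 8 and in 0.342% of windows. The core was chosen from these windows, and the pair was not among the motifs set beforehand. The pair shares therefore describe the windows and are no test. From the first base of the core to the first base of ATTGG there were 33 bases in HLA-DRB1, 34 in HLA-DQA1, 33 in HLA-DQB1 and 34 in HLA-DMA. In CD74, which lacks the core, the Y box reads CCAAT and starts 31 bases after the start of the long motif. Of 5 other class II genes with an entry, 0 held the long X box, 2 the core and 5 the Y box. The pair occurred in 0 of these 5 with the long X box and in 2 with the core. Of the motifs tied to induction, the GAS element TTCNNNGAA was present in 1 of the 8 genes (7.66% of windows). The E box CACGTG (7.26% of windows) and the interferon response element (3.57%) were present in 0 of 8. These are matches of letters within the windows.

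Library totals ranged from 25316565 to 34594025 estimated counts, and the 10 genes had between 270 and 37301 counts in a library. MAPKAPK2 itself was at 89.6 ± 2.2 CPM (counts scaled to a common library size; SD, n = 3) in wild type with DMSO and 117 ± 4.31 with JQ1, against 12.4 ± 1.15 and 14.4 ± 1.61 in the knockout. Replicate 3 of the knockout with JQ1 stood apart: the chi-square per degree of freedom between replicates was 28.1 and 29.7 for its pairs and 3.5 to 8.06 for all others. The melanocyte and melanoma markers SOX10 (437 and 438 CPM) and S100B (29.3 and 40.0) were expressed in wild type and knockout with DMSO. MITF was at 43.1 CPM in wild type with DMSO and 28.8 in the knockout with DMSO. The pigment genes TYR and DCT, and MLANA, stayed under 1 CPM in every group mean. PMEL means ran from 0.335 CPM in the knockout with DMSO to 1.18 in the knockout with JQ1. The 12 markers of blood and antigen-presenting cells summed to between 4.83 and 5.44 CPM in wild type with DMSO, 2.29 and 3.17 with JQ1, 4.74 and 5.37 in the knockout with DMSO, and 2.68 and 3.07 with JQ1. Among them MS4A1, AIF1 and CD1C had 0 counts in all 12 libraries. The part of these marker shifts in the class II values was not tested.

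Class II transcripts were present in wild-type A375 with DMSO. Summed over the 10 genes they reached 1884 ± 32 CPM (SD, n = 3), or 0.199% of all counts. On a scale of CPM per kilobase of transcript, CD74 had the highest level at 683, followed by the alpha chain HLA-DRA at 475. HLA-DPA1 followed at 133, HLA-DRB1 at 77.8, HLA-DMA at 44.5 and HLA-DPB1 at 35.4. CIITA (20.7), HLA-DQB1 (20.5) and HLA-DMB (18.6) lay next to each other within their spread, and HLA-DQA1 was lowest at 15.8. The length used was the median protein-coding transcript in GENCODE release 29. CIITA transcripts there range from 2344 to 16059 bases, so its place in this order is the least certain. HLA-DPA1 and HLA-DPB1 overlap on opposite strands, and the strand setting of the counting was not given in the sources used here. Reads of HLA-DRB1, HLA-DQA1 and HLA-DQB1 may be divided with their near copies HLA-DRB5, HLA-DQA2 and HLA-DQB2. On the same scale these copies were at 66.9, 21.3 and 5.02 in wild type with DMSO. HLA-DQA2 thus lay above HLA-DQA1, as it did in every group. The lowest place of HLA-DQA1 therefore holds only for the counts given to that symbol.

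**Figure D1:**
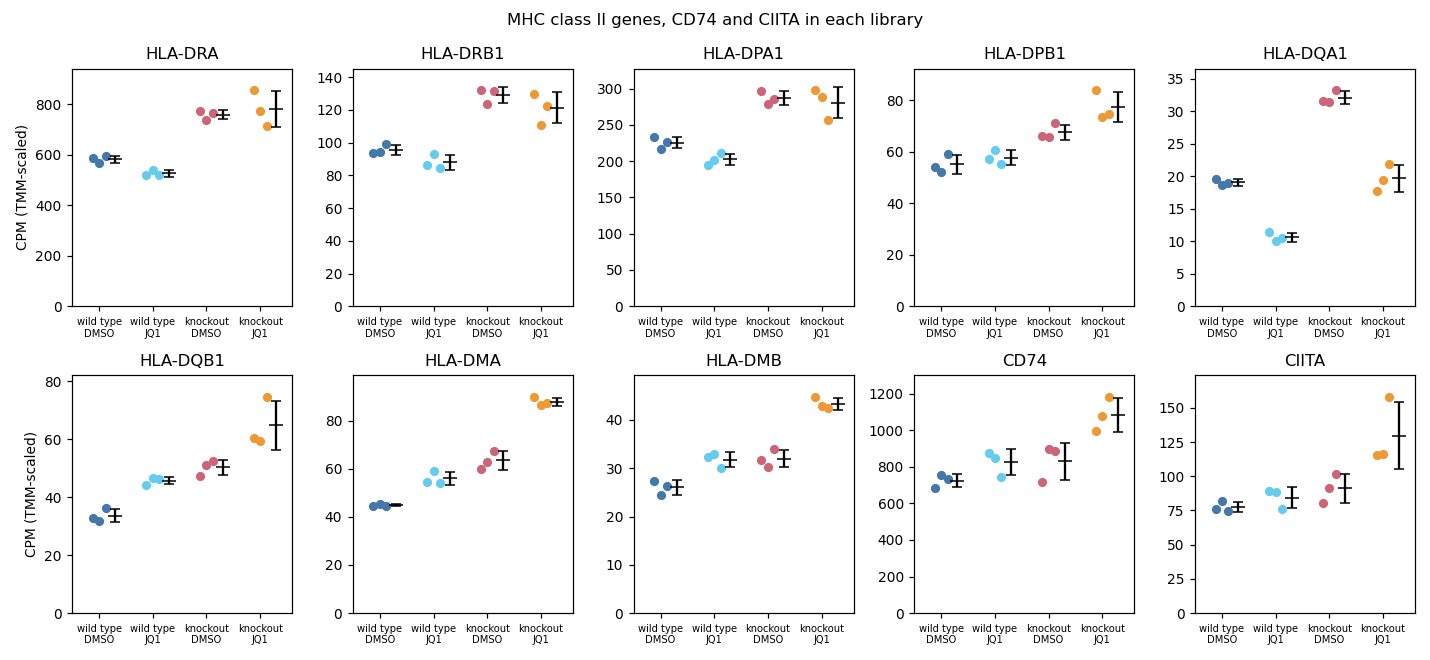
Level of each of the 10 genes in each of the 12 libraries, in CPM, by group. Points are libraries, and the black marks beside them are the mean and SD (n = 3). Every one of the 10 genes is higher in all 3 knockout libraries with JQ1 than in all 3 wild-type libraries with JQ1.

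Loss of MK2 went with a higher level of the chain and editor genes. In DMSO, 8 of the 10 genes rose in the knockout and 0 fell, while 3.47% of the 21698 tested genes rose and 4.44% fell (7.92% called in all; edgeR's quasi-likelihood test, Benjamini-Hochberg adjusted p under 0.05). The median log2 difference of the 10 genes was 0.37, against -0.0049 over all genes tested. For 8 genes the knockout libraries all lay above the wild-type libraries, and for 0 all below, against 14.8% and 14.7% of tested genes. The summed level of the 10 genes was 2343 ± 97.7 CPM in the knockout. In bulk RNA a change in the share of expressing cells and a change in RNA per cell cannot be told apart.

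HLA-DRA, the common partner of all DR beta chains, was at 585.5, 567 and 594 CPM in the wild-type libraries and at 775, 738 and 765 in the knockout. The groups did not overlap, and the log2 difference was 0.38 (SE 0.0592, edgeR quasi-likelihood with Benjamini-Hochberg, adjusted p = 0.00078), a 1.30-fold rise. HLA-DRB1 was at 93.4, 94.1 and 99.2 CPM against 132, 124 and 131.5, again with no overlap (log2 difference 0.43). HLA-DPA1 and HLA-DPB1, the 2 chains of DP, rose by 0.35 and 0.29 on the log2 scale.

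The largest of the 10 differences was that of HLA-DQA1, the alpha chain of DQ. It was at 19.6, 18.6 and 18.9 CPM in wild type and at 31.6, 31.4 and 33.2 in the knockout, so every knockout library lay well above every wild-type library. The log2 difference was 0.75 (SE 0.0823, edgeR quasi-likelihood with Benjamini-Hochberg, adjusted p = 3.53e-05), or 1.68-fold. Its partner HLA-DQB1 rose by 0.58. The editor subunit HLA-DMA was at 44.6, 45.4 and 44.5 CPM against 60.05, 62.8 and 67.5, a log2 rise of 0.50, and HLA-DMB rose by 0.30. The calls for HLA-DPB1 and HLA-DMB were lost when single libraries were left out: HLA-DPB1 without wild-type DMSO replicate 1 or 2 or knockout DMSO replicate 3 (adjusted p = 0.0748, 0.0973 and 0.0871, edgeR), and HLA-DMB without wild-type DMSO replicate 2 or knockout DMSO replicate 3 (0.0937 and 0.0839).

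CIITA and CD74 did not pass the test in DMSO. CIITA was at 76.1, 82.1 and 74.6 CPM in wild type and at 80.1, 91.5 and 102 in the knockout. The groups overlapped, with a log2 difference of 0.23 and a 95% interval from -0.02 to 0.48 (edgeR, adjusted p = 0.296). With the gene-specific factors behind the authors' normalized table the difference was 0.38 (edgeR, adjusted p = 0.0838). CD74 was at 683, 754 and 734.5 CPM in wild type and at 715, 895 and 884 in the knockout, where replicate 1 lay within the wild-type range. Its log2 difference was 0.20 (edgeR, adjusted p = 0.225), and without that library it was called (adjusted p = 0.0305).

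Under JQ1 all 10 genes were higher in the knockout. The background was 3.01% of tested genes called higher and 5.56% lower (8.57% in all), and the median of the 10 log2 differences was 0.49, against -0.0015 over all genes. None of the 10 genes overlapped between the 2 genotypes, which held for 10.7% of all tested genes in this direction and for 12.4% in the other. The summed level was 1927 ± 83.9 CPM in wild type with JQ1 and 2690 ± 42.1 in the knockout with JQ1. These values and those in DMSO come from separate libraries, but the JQ1 comparisons that follow share libraries with both.

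CIITA was at 89.2, 88.4 and 75.8 CPM in wild type with JQ1 and at 115, 116 and 158 in the knockout with JQ1. Replicate 3 of the knockout, the library that stood apart, was the highest of all 12. The log2 difference was 0.62 (SE 0.1159, edgeR quasi-likelihood with Benjamini-Hochberg, adjusted p = 0.00314), and without that library it was 0.45 (adjusted p = 0.003). CD74 was at 878, 850 and 745 CPM against 996, 1075 and 1181, with no overlap. Its log2 difference was 0.40 (edgeR, adjusted p = 0.0108). The call for CD74 was lost without wild-type JQ1 replicate 3 (adjusted p = 0.06). Without knockout JQ1 replicate 3 the CD74 difference was 0.33 (edgeR, adjusted p = 0.0239).

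Among the chains under JQ1, HLA-DQA1 again differed most. It was at 11.4, 10.0 and 10.5 CPM in wild type and at 17.7, 19.5 and 21.8 in the knockout, a log2 difference of 0.89. HLA-DRA was at 519, 540 and 519 CPM against 856, 774.5 and 712, a log2 difference of 0.57 with no overlap. HLA-DMA differed by 0.65, HLA-DQB1 by 0.50, HLA-DPA1 by 0.47, HLA-DRB1 by 0.46, HLA-DMB by 0.45 and HLA-DPB1 by 0.42 on the log2 scale, and each passed the test. Without knockout JQ1 replicate 3 the difference was smaller for HLA-DQB1 (0.39) and larger for HLA-DRA (0.63). Both were still called (edgeR, adjusted p = 0.00107 and 6.11e-07).

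**Figure D2:**
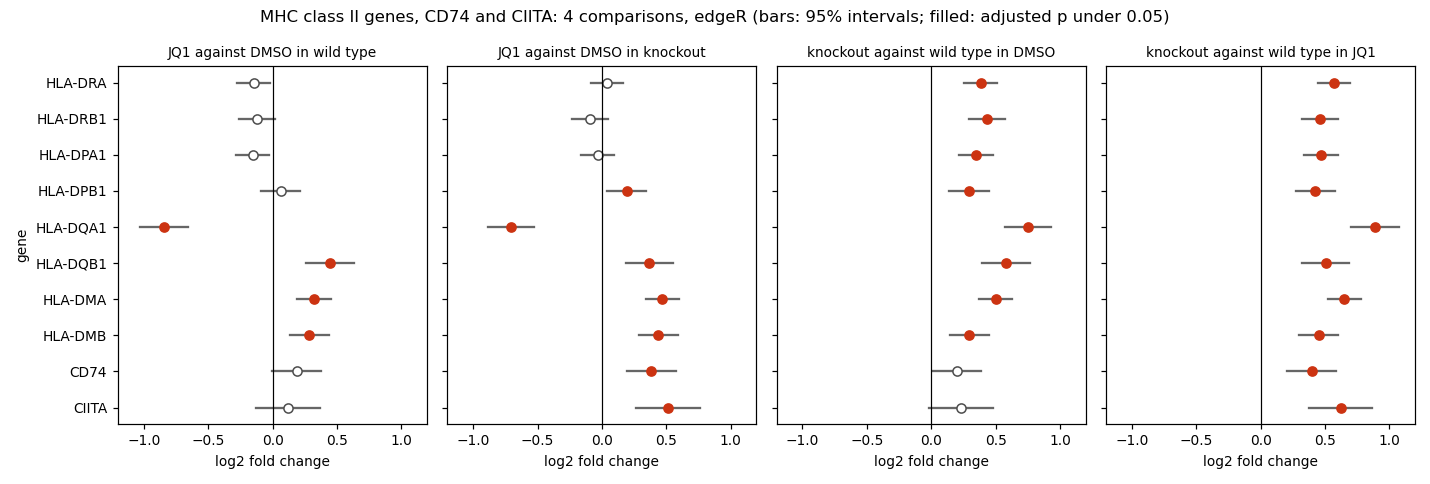
Log2 difference of each of the 10 genes in the 4 comparisons. Points are estimates from edgeR, filled where the adjusted p is under 0.05, and bars are 95% intervals. The genotype estimates are above 0 for all 10 genes, while the JQ1 differences lie on both sides of 0, with HLA-DQA1 lowest.

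JQ1 divided the genes. In wild type 3 of the 10 rose (HLA-DQB1, HLA-DMA and HLA-DMB) and 1 fell (HLA-DQA1), and this share is close to the background, in which 33.1% of tested genes were called, 16.9% higher and 16.2% lower. The median log2 difference of the 10 genes was 0.09, against -0.03 over all genes. The groups did not overlap for 3 genes higher and 4 lower, where 24.4% and 26% of all tested genes were so separated. HLA-DQA1 fell from the levels given above, near 19 CPM, to between 10.0 and 11.4. The fall was 0.84 on the log2 scale (SE 0.0866, edgeR quasi-likelihood with Benjamini-Hochberg, adjusted p = 3.94e-06). HLA-DQB1 moved the other way. It was at 33.0, 31.7 and 36.1 CPM with DMSO and at 44.2, 46.5 and 46.5 with JQ1, a log2 rise of 0.44 (SE 0.0865, edgeR, adjusted p = 0.00109).

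The editor HLA-DM rose with JQ1 in wild type, HLA-DMA by 0.32 and HLA-DMB by 0.28 on the log2 scale. HLA-DRA (-0.15), HLA-DPA1 (-0.16), HLA-DRB1 (-0.12), HLA-DPB1 (0.06), CD74 (0.19) and CIITA (0.12) did not pass the test. HLA-DRA and HLA-DPA1 were close to the threshold (edgeR, adjusted p = 0.0735 and 0.0635), and all 3 JQ1 libraries lay below all 3 DMSO libraries for each. Both were called lower without the knockout JQ1 library that stood apart (adjusted p = 0.0164 and 0.013), which left 3 genes higher and 3 lower. CD74 was called higher with no filter on low counts (adjusted p = 0.0307, edgeR), with only the groups compared (0.01) and without knockout DMSO replicate 1 (0.0489). Scaling by library totals alone shifted the median of all genes by -0.13 and gave 2 higher and 4 lower, with HLA-DMB no longer called (edgeR, adjusted p = 0.0992).

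In the knockout, JQ1 raised 6 of the 10 genes and lowered 1, with 34.4% of all tested genes called, 16.7% higher and 17.8% lower. The median log2 difference of the 10 was 0.28, against -0.0035 over all genes. The groups did not overlap for 6 genes higher and 1 lower, against 20.3% and 22% of tested genes. HLA-DQA1 was again the gene that fell, by 0.70 on the log2 scale (SE 0.0828, edgeR quasi-likelihood with Benjamini-Hochberg, adjusted p = 1.16e-05). CIITA rose by 0.51 (SE 0.1157, adjusted p = 0.00303, edgeR), and by 0.35 without replicate 3 (adjusted p = 0.00573). HLA-DMA rose by 0.47, from 60.05, 62.8 and 67.5 CPM to 89.8, 86.6 and 87.4. HLA-DMB rose by 0.44, CD74 by 0.38 and HLA-DQB1 by 0.37. Without replicate 3 these rises were 0.46, 0.32 and 0.26, and all were still called. The rise of HLA-DPB1 by 0.19 was at the edge (edgeR, adjusted p = 0.0464) and was lost in 15 of 23 alternatives. HLA-DRA, HLA-DRB1 and HLA-DPA1 differed by 0.04, -0.09 and -0.03 and did not pass. Library totals shifted the median of all genes by -0.12 here and gave 5 higher and 2 lower.

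Whether JQ1 acted differently in the 2 genotypes was tested with the interaction term. None of the 10 genes passed with edgeR, DESeq2 or limma, and 0.134% of all tested genes did with edgeR (0.0323% higher and 0.101% lower). At an unadjusted p under 0.05 there were 2 of the 10, against 8.37% of all tested genes. CIITA had a difference between the JQ1 effects of 0.39 on the log2 scale, with a 95% interval from 0.04 to 0.74 (edgeR, adjusted p = 0.537). Without knockout JQ1 replicate 3, the library that stood apart, it was 0.22 (adjusted p = 0.441). HLA-DRA had one of 0.19, with an interval from 0.01 to 0.37 (edgeR, adjusted p = 0.57), and 0.25 without that library (adjusted p = 0.129). Leaving out each library in turn gave 0.22 to 0.47 for CIITA and 0.12 to 0.25 for HLA-DRA. The call for CIITA with JQ1 in the knockout and not in wild type is therefore not shown to be a difference between genotypes.

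The opposite movement of the DQ chains appeared in their ratio. HLA-DQA1 counts per HLA-DQB1 count were 0.596, 0.587 and 0.524 in wild type with DMSO and 0.258, 0.215 and 0.226 with JQ1. In the knockout they were 0.667, 0.617 and 0.633 with DMSO and 0.293, 0.327 and 0.293 with JQ1. In each genotype every JQ1 library lay below every DMSO library. Counts of the near copies HLA-DQA2 and HLA-DQB2 are not part of this ratio, and HLA-DQA2 had more counts than HLA-DQA1. The ratio of the DP chains, HLA-DPA1 to HLA-DPB1, went from 4.1 ± 0.247 to 3.52 ± 0.268 in wild type and from 4.25 ± 0.233 to 3.63 ± 0.263 in the knockout (SD, n = 3). In wild type the DP groups met, with replicate 3 at 3.82 in both treatments, while in the knockout they did not overlap. HLA-DRA per CIITA count was 7.52 ± 0.549 and 6.26 ± 0.527 in wild type with DMSO and JQ1, and 8.42 ± 1.12 and 6.2 ± 1.51 in the knockout.

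**Figure D3:**
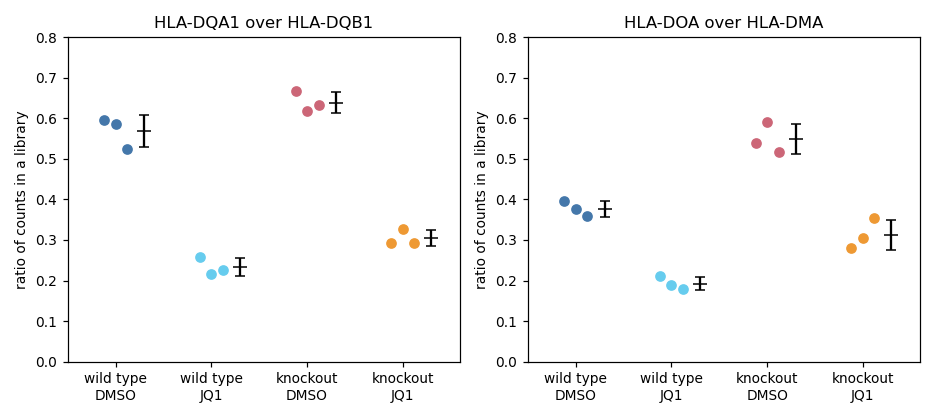
Ratio of counts of HLA-DQA1 to HLA-DQB1 (left) and of HLA-DOA to HLA-DMA (right) in each library, by group. Points are libraries, and the black marks are the mean and SD (n = 3). The HLA-DQA1 to HLA-DQB1 ratio is between 0.524 and 0.667 with DMSO and between 0.215 and 0.327 with JQ1. It leaves out the near copies HLA-DQA2 and HLA-DQB2. The HLA-DOA to HLA-DMA ratio leaves out HLA-DOB, which was under 1 CPM in every group mean.

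Of 10 other class II genes and pseudogenes, 7 were tested. In each treatment 5 of the 7 rose in the knockout and 0 fell, while HLA-DOB and HLA-DPB2 did not pass the test (0.08 and -0.07 in DMSO, 0.48 and 0.71 in JQ1). The background was 3.47% of tested genes higher and 4.44% lower in DMSO, and 3.01% and 5.56% in JQ1. Those that rose include HLA-DRB5, HLA-DQA2 and HLA-DQB2, which may share reads with the 10 genes and so may not add separate signal. The 7 had medians of 0.40 in DMSO and 0.54 in JQ1. HLA-DOA, the alpha chain of HLA-DO, which inhibits HLA-DM, was at 17.7, 17.1 and 15.9 CPM in wild type and at 32.4, 37.1 and 34.97 in the knockout with DMSO. That is a log2 difference of 1.04 (SE 0.0938, edgeR quasi-likelihood with Benjamini-Hochberg, adjusted p = 4.84e-06), larger than that of any of the 10 genes. Under JQ1 it was 1.36 (adjusted p = 4.97e-07, edgeR). With JQ1, 0 of the 7 rose and 3 fell in wild type (HLA-DQA2, HLA-DOA and the pseudogene HLA-DPB2), and 2 fell in the knockout. Over all tested genes JQ1 raised 16.9% and lowered 16.2% in wild type, and 16.7% and 17.8% in the knockout. HLA-DOA fell by 0.66 and 0.34 and HLA-DQA2 by 0.86 and 0.53 on the log2 scale in wild type and knockout. HLA-DOA counts per HLA-DMA count were 0.377 ± 0.0193 in wild type with DMSO and 0.192 ± 0.0165 with JQ1, and 0.549 ± 0.0374 and 0.313 ± 0.0374 in the knockout (SD, n = 3). HLA-DOB, the beta chain of HLA-DO, was at only 0.61 and 0.25 CPM in wild type with DMSO and JQ1. In the knockout it was at 0.64 and 0.35 CPM. The ratio therefore describes the HLA-DOA transcript and not the level of HLA-DO. When HLA-DQA1 was summed with HLA-DQA2, HLA-DQB1 with HLA-DQB2 and HLA-DRB1 with HLA-DRB5, the summed DQ alpha counts still fell with JQ1 in wild type, by 0.85, and the DQ beta counts rose by 0.41.

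The factors that bind class II promoters were looked at next. Of 7 tested, 2 rose in the knockout with DMSO, RFXANK, a subunit of RFX, by 0.43 (edgeR, adjusted p = 0.00509) and NFYA, a subunit of NF-Y, by 0.25 (adjusted p = 0.0324). Over all tested genes 3.47% rose and 4.44% fell in that comparison. Under JQ1, 0 of the 7 passed the test between genotypes, where 8.57% of all tested genes were called. RFXANK was there 0.29 higher in the knockout, with groups that did not overlap and a 95% interval from 0.10 to 0.47 (edgeR, adjusted p = 0.0578). JQ1 itself lowered NFYB in both genotypes, by 0.51 and 0.44, and raised NFYA in wild type by 0.31. Of 5 CIITA coactivators 0 passed the test between genotypes, close to the shares of all tested genes called (7.92% in DMSO and 8.57% in JQ1). The nearest was KAT2B, an acetyltransferase, with a difference under JQ1 of -0.26, a 95% interval from -0.42 to -0.09 and no overlap (edgeR, adjusted p = 0.0541). With JQ1 KAT2B rose by 0.58 and 0.52, while CARM1, an arginine methyltransferase, fell in the knockout by 0.35.

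Of the regulators upstream of CIITA, 10 of 11 were tested. JQ1 raised 4 in each genotype and lowered 0 in wild type and 1 in the knockout, so that 4 and 5 of 10 were called against 33.1% and 34.4% of all tested genes. JAK1, a kinase of the interferon gamma receptor, rose by 0.53 and 0.43. SOCS1, the inhibitor of that kinase, rose by 2.55 and 1.47 from 10 or fewer counts in each DMSO library. Between genotypes 7.92% of all tested genes were called in DMSO and 8.57% in JQ1. Of the 10 regulators 1 was called in each treatment, close to that background. It was IRF2, which can bind the CIITA promoter. It was higher in the knockout by 0.44 in DMSO (edgeR, adjusted p = 0.000532) and by 0.32 in JQ1 (adjusted p = 0.0052).

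Further along the pathway, 7 of 14 endosomal processing genes rose and 4 fell with JQ1 in each genotype. Of all tested genes, 16.9% rose and 16.2% fell in wild type, and 16.7% and 17.8% in the knockout. The protease CTSL rose by 0.78 and 0.99, the endosomal tetraspanin CD63 by 0.64 and 0.71, and CTSS, the protease that trims CD74 in antigen-presenting cells, fell by 1.499 and 0.77 from a level of only 2.37 CPM in wild type. Between genotypes 1 of 14 rose and 1 fell in DMSO, and 1 rose in JQ1. Over all tested genes 3.47% rose and 4.44% fell in DMSO, and 3.01% and 5.56% in JQ1, so these counts are close to the background. CD74 is also a receptor of the cytokine MIF, and MIF rose with JQ1 by 0.37 and 0.28. Of 3 tested genes of that axis, 0 passed the test between genotypes, with 7.92% of all tested genes called in DMSO and 8.57% in JQ1. The median log2 JQ1 difference in wild type and knockout was 0.04 and -0.0050 for the promoter-binding factors, -0.10 and -0.08 for the coactivators, 0.21 and 0.14 for the upstream regulators and 0.13 and 0.20 for the endosomal genes, against -0.03 and -0.0035 over all genes. Between genotypes the medians of these 4 lists lay between -0.17 and 0.07.

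Class I genes load peptides from the cytosol for CD8+ T cells. Of 10 tested, 2 rose in the knockout with DMSO (HLA-B by 0.26 and HLA-C by 0.25) and 1 with JQ1 (HLA-B by 0.40), and 0 fell. Over all tested genes 3.47% rose and 4.44% fell in DMSO, and 3.01% and 5.56% in JQ1. The medians were 0.16 and 0.09, against 0.37 and 0.49 for the 10 class II genes. With JQ1, PSMB8, an immunoproteasome subunit, fell by 0.76 and 0.92.

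**Figure D4:**
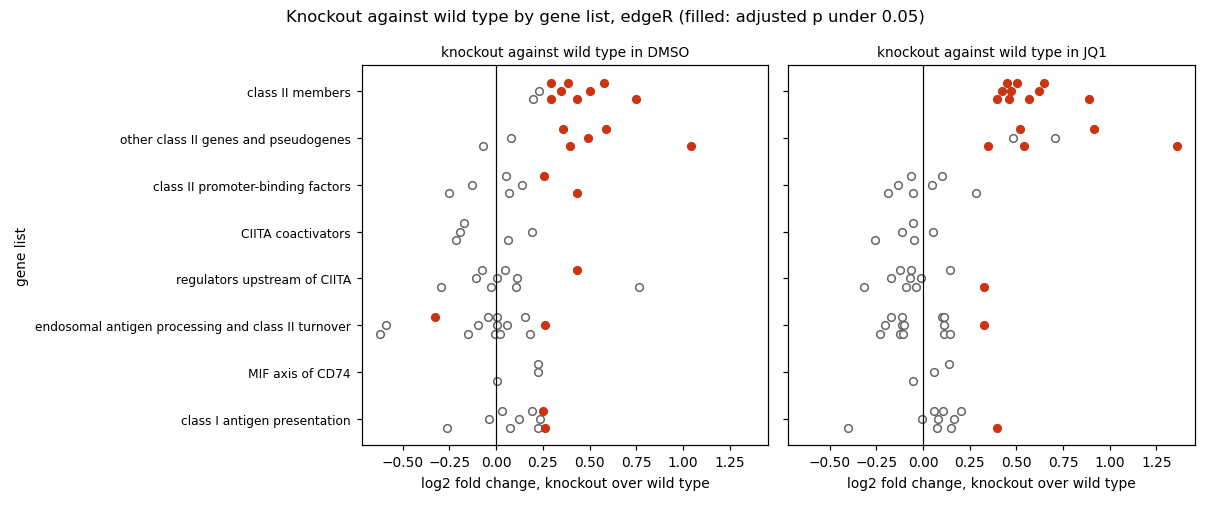
Log2 difference of knockout over wild type for the genes of each list, in DMSO (left) and in JQ1 (right). Points are genes, spread vertically within a list for legibility and filled where the adjusted p is under 0.05. The class II genes and the other class II genes lie mostly above 0 in the comparisons of genotypes, with medians between 0.37 and 0.54, and the medians of the other lists lie between -0.17 and 0.22.

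Position was looked at last. The 8 HLA genes lie on chromosome 6, from the start of HLA-DRA (32439842) to the end of HLA-DPB1 (33087201) in GRCh38, whereas CD74 is on chromosome 5 and CIITA on chromosome 16. That interval holds 7 other protein-coding genes, of which 6 were tested, a set chosen after the values of the 10 genes had been seen. Between genotypes 0 of the 6 were called in either treatment, with medians of 0.13 and 0.07. Over all tested genes 7.92% were called in DMSO and 8.57% in JQ1, so 0 of 6 is close to the background. With JQ1, 2 rose (TAP1 and BRD2) and 2 fell (TAP2 and PSMB8) in each genotype. The background there was 33.1% of tested genes called in wild type and 34.4% in the knockout.

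Across the 12 libraries, the log2 CPM of CIITA had a Pearson r of 0.954 with CD74, 0.884 with HLA-DMA, 0.866 with HLA-DQB1, 0.853 with HLA-DMB, 0.788 with HLA-DPB1, 0.569 with HLA-DRA, 0.543 with HLA-DRB1, 0.449 with HLA-DPA1 and 0.198 with HLA-DQA1. Among 15400 other genes, those most like CIITA were TOR3A (0.956), TUSC1 (0.955), DAP (0.955), RUNDC1 (0.953) and CELF1 (0.952). DAP was also the gene most like CD74 (0.976), and PSMB5 was most like HLA-DRA (0.968). These values share 4 groups and the same libraries, so they describe these samples only. Knockout JQ1 replicate 3, the library that stood apart, was the highest of all 12 for both CIITA (158 CPM) and CD74 (1181 CPM). No correlation was computed without it.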

How the data were processed

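RNA-seq of rRNA-depleted total RNA was made with a directional kit, per the labels' protocols. The submitters' processing notes name Trim Galore, cutadapt, FastQC, MultiQC, kallisto and DESeq2, and the build GRCh38.p10. The annotation and the strand setting are not given in the sources used here. The authors deposited estimated counts per gene symbol, which were rounded. A second table that the authors deposited holds a normalized signal, equal to the rounded count divided by a factor of its gene and library, and was used only in alternatives.

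Genes were filtered with filterByExpr (minimum count 10), which left 21698. All 12 libraries were fitted with 1 term per group in edgeR 4.0.16 (R 4.3.3; TMM factors 0.926 to 1.06, quasi-likelihood test, Benjamini-Hochberg over all tested genes, threshold 0.05). CPM are scaled by TMM. Standard errors are the log2 difference divided by the square root of F, and intervals are at 95%. Depth limits the precision of genes with few counts. Sums over the 10 genes have no test.

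The members, lists and motifs were chosen with earlier results of these data known. All 10 members were named, and, in each list and comparison, the 3 lowest adjusted p-values at most. Some list genes that this rule names are not reported here. Likeness was limited to genes averaging 1 CPM or more. Promoters come from RefSeq and places from GENCODE release 29. Alternatives were DESeq2 1.42.0, limma 3.58.1 on log2(signal + 1), other scalings, filters and thresholds, the replicate block, fits of only the groups compared, and each library left out. The authors' factors as offsets and the summing of near copies were added after seeing the data. The fitting was tested on simulated data for JQ1 against DMSO in wild type only. The changes set there were larger than most of those reported for the 10 genes, so smaller changes were not covered.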

Additional observations from a re-analysis of the deposited data

How the results depend on the processing

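All differences between genotypes kept their direction in 460 recomputations, with 9 losing and 1 gaining a call, and the JQ1 differences kept theirs in all but 5 of 460, with 16 losing and 14 gaining a call. Leaving out 1 library at a time gave 4 to 6 called genes for JQ1 in wild type, 6 to 7 for JQ1 in the knockout, 6 to 9 for genotype in DMSO, 9 to 10 for genotype in JQ1 and 0 for the interaction. A fit of only the groups compared called 7 genes for JQ1 in wild type, 4 higher and 3 lower. With library totals the summed level was 1997 CPM in wild type with DMSO and 2550 in the knockout with JQ1, and the JQ1 differences changed sign for HLA-DPB1 (-0.0659) and CIITA (-0.0081) in wild type and for HLA-DRA in the knockout (-0.0730). Without single libraries, the JQ1 difference in the knockout ranged from -0.0282 to 0.1047 for HLA-DRA and from -0.0761 to 0.0305 for HLA-DPA1, and the interaction of HLA-DRB1 from -0.0243 to 0.0875. The cause was not tested.

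Same-numbered libraries did not deviate together (correlations from -0.115 to 0.0786, 2 of 12 libraries closest to one of their own number), so the numbers were not taken as pairs. With the replicate block the counts were 4, 6, 8, 10 and 0, and HLA-DPB1 with JQ1 in the knockout lost its call (edgeR, adjusted p = 0.0683).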
